A study of Mus musculus with 16 samples.

Results

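The 8 untreated livers of this array series fell into 2 sets that differed in the level of Arntl, the gene for the clock activator BMAL1, and those sets cut across the genotypes. The sides were chosen by a measured value, the Arntl level of each array: arrays with a log2 Arntl value of 8 or more formed the Arntl-high side and arrays under 7 the Arntl-low side. Of 16 arrays in the series, 8 were untreated and all 8 fell on one side or the other, 4 on each. The Arntl-high side held WT untreated 1 and 3 and S534A untreated 3 and 4, and the Arntl-low side held WT untreated 2 and 4 and S534A untreated 1 and 2. The study compared wild-type male C57Bl/6 mice with mice homozygous for S534A, a knock-in that puts alanine in place of one serine of the NF-kB subunit p65 (RelA), untreated or given lipopolysaccharide (LPS) at 1 mg/kg. Each of the 4 groups had 4 arrays. The knock-in was made in embryonic stem cells, its neo cassette was removed by crossing to a Flp recombinase line, and it was backcrossed 5 times to C57Bl6/J before breeding to homozygosity. The substitution is carried in the germ line and so in every cell type of the liver. WT livers are labelled C57Bl6/J, and the labels do not say whether they were littermates of the knock-in. All mice lived on a 12-hour light-dark cycle with free access to chow. The hour of collection, the time after LPS and whether each array is a separate mouse were not stated in the labels, so the spread between arrays may be partly technical. The series' design line attaches the LPS dose to the untreated S534A group as well, while the titles and source names do not, and the latter were followed.

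The circadian clock of the liver is a feedback loop in transcription. BMAL1 and CLOCK bind E-box sequences and switch on Per, Cry, Nr1d1, Nr1d2 and Dbp. PER and CRY proteins then block BMAL1 and CLOCK, while REV-ERB proteins (Nr1d1, Nr1d2) repress Arntl, Clock and Nfil3 through elements shared with ROR activators. DBP, TEF and HLF activate, and NFIL3 represses, genes that carry a D-box, which relays the cycle to metabolism. In liver, Arntl and Dbp therefore peak at opposite times of day, and feeding time as well as light can set their phase.

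Arntl was 9.27, 9.17, 9.71 and 8.33 on the Arntl-high side, in the order WT 1, WT 3, S534A 3 and S534A 4. It was 6.40, 6.35, 6.43 and 6.43 on the Arntl-low side, in the order WT 2, WT 4, S534A 1 and S534A 2, and all array values below keep these 2 orders. The array just inside the upper limit was S534A untreated 4 at 8.33, and those just inside the lower limit were S534A untreated 1 and 2 at 6.43, so no untreated array lay between 7 and 8. All values are log2 expression as deposited, and differences are the Arntl-high mean minus the Arntl-low mean (n = 4 arrays each), with the standard error of that difference. Because the sides were drawn from Arntl in these same arrays, every gene compared between them is a description without a test.

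The first principal component of all genes among the untreated arrays held 51.0% of the variance and followed the same division. It placed WT 1, WT 3 and S534A 3 at −23.2, −21.2 and −15.5 and the Arntl-low arrays between 9.89 and 18.9. S534A untreated 4 lay between them at 1.14, nearer the Arntl-low arrays, so gene counts are also given without it. The side differences of single genes include it. Leaving it out moved the difference of Dbp from −2.88 to −3.65 and that of Arntl from 2.72 to 2.98. Any 2 untreated arrays correlated at 0.985 to 0.996 over genes. Array medians were 6.31 to 6.35 on the Arntl-high side and 6.25 to 6.32 on the Arntl-low side, and these overlapped. The defining hepatocyte transcript Alb stood at 14.00 to 14.16 in all 8 untreated livers.

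The stretches of DNA printed here hold the motifs through which the clock genes described here are known to be wired and belong to genes that carry the clearest matches. They are RefSeq sequences of build GRCm38.p6, read 5′ to 3′ on the strand of the gene, and capitals mark the match. The motifs below were searched on both strands in the 250 bases before each annotated start: the E-box CACGTG, the D-box as TTATGTAA or TTACGTAA, and the ROR element TAGGTCA. No 2 matches overlapped in the sequences shown. Ciart, chr3:95882229-95882478 on the minus strand, holds 3 E-boxes beginning 116, 58 and 44 bases before the start. Per3, chr4:151044666-151044915 on the minus strand, holds 2 D-boxes at 205 and 158 bases before the start. Coq10b, chr1:55052520-55052769 on the plus strand, holds a D-box at 162 and an E-box at 78. Nfil3, chr13:52981040-52981289 on the minus strand, holds a ROR element on the opposite strand at 12. For Arntl, the 27 bases at chr7:113207531-113207557 on the plus strand begin shortly after an annotated start and hold a ROR element. The 250 bases before its annotated starts held none of these motifs, and bases after the start were searched for Arntl alone.
Ciart: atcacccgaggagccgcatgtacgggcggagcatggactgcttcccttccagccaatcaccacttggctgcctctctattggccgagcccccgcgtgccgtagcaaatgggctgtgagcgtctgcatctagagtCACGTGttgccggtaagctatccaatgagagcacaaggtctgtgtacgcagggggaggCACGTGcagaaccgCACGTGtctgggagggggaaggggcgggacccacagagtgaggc
Per3: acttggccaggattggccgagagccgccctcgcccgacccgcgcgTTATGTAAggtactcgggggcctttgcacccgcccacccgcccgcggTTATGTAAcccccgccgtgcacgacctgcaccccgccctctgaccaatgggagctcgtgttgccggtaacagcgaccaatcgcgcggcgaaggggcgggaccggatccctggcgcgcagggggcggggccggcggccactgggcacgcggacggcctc
Coq10b: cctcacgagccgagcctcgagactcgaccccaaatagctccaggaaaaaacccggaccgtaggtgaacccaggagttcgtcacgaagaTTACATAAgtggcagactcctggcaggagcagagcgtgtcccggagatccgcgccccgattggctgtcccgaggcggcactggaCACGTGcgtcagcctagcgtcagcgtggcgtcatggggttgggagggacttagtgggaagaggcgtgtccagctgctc
Nfil3: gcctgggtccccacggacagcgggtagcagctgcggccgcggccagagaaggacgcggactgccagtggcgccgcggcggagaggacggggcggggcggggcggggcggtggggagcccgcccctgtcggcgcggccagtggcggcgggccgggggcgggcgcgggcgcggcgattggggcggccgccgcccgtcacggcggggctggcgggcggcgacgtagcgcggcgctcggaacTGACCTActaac
Arntl: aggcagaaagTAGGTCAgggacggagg
The first 3 genes were lower on the Arntl-high side and the last pair were higher. They were picked for display, and other named genes went differently. Cxcl13 holds a ROR element and was lower, Ppp1r3c holds an E-box and was higher, and Cry1 holds an E-box but its sides overlapped. Counted over genes with a promoter in the table, the E-box was present in 21 of 114 genes that were lower on the Arntl-high side (18.4%) and in 10 of 88 that were higher (11.4%). Over all 12559 tested genes with a promoter the share was 9.06%, and over all 32851 promoters it was 6.02%. A gene counted where any of its annotated starts had the motif, while the share over promoters, here and below, counts each start alone. Of the 21 lower genes with an E-box, 4 are in the clock lists. The D-box was present in 3.51% of the lower genes and 1.14% of the higher genes, against 0.828% of tested genes and 0.931% of all promoters. The ROR element was present in 5.68% of the higher genes and 2.63% of the lower genes, against 2.2% of tested genes and 2.23% of all promoters. These D-box and ROR element shares rest on 1 to 5 genes each. The windows of Dbp and Usp2 held none of these letters.

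Clock and Nfil3 stood with Arntl, while Rora did not. Clock, the partner of BMAL1, was 10.27, 10.30, 10.43 and 9.97 on the Arntl-high side and 9.27, 9.71, 9.64 and 9.50 on the Arntl-low side. The difference was 0.71 ± 0.14, and the sides did not overlap. Nfil3, the D-box repressor, was 9.25, 9.19, 10.11 and 9.19 against 7.88, 7.79, 7.60 and 8.48, means 2.82-fold apart with an error of 0.29 on the log2 scale. S534A untreated 3 had the highest Nfil3 of the 8 and S534A untreated 2 the highest on its side, and the sides again did not overlap. Rora, which encodes a ROR activator, ranged from 9.93 to 10.29 against 10.00 to 10.16, with overlap.

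Several clock repressors and BMAL1 targets stood opposite to Arntl. Ciart, which encodes the clock repressor CHRONO and carries the 3 E-boxes above, was 7.55, 6.19, 6.62 and 10.06 on the Arntl-high side. It was 10.69, 10.65, 10.36 and 10.67 on the Arntl-low side, so that the means differed by −2.99 ± 0.87. S534A untreated 4 was within a log2 unit of the Arntl-low arrays while the other 3 Arntl-high arrays were far below. Per1, a light-responsive period gene, was 6.54, 6.48, 6.49 and 8.62 against 9.29, 8.81, 8.79 and 9.13, a difference of −1.97 ± 0.54. Per2 was 7.68, 7.45, 7.20 and 8.75 against 9.37, 9.10, 9.28 and 9.33, means 2.83-fold apart with an error of 0.34 on the log2 scale. Per3 was 6.90, 6.72, 6.71 and 8.36 against 8.87, 9.04, 9.22 and 8.98, a difference of −1.86 ± 0.41. In these 3 Per genes, too, S534A untreated 4 was nearer to the Arntl-low arrays than the other 3 were. Nr1d2 (REV-ERB beta) differed by −0.97 ± 0.22 without overlap. Cry2 differed by −0.53 ± 0.14; its sides did not overlap, but the means were less than 1.5-fold apart.

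Not all clock genes followed the division. Nr1d1 (REV-ERB alpha), a direct BMAL1 target, was 11.65, 10.65, 11.11 and 10.91 against 10.89, 11.75, 10.52 and 10.74. The highest values were one array of each side, WT 4 and WT 1, and the difference was 0.11 ± 0.34. Cry1 (−0.09 ± 0.08), Csnk1d (−0.04 ± 0.06), Csnk1e (0.00 ± 0.05) and Fbxl21 (0.21 ± 0.07) overlapped as well. The casein kinase genes Csnk1d and Csnk1e encode kinases that mark PER proteins for turnover.

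Among the output factors Dbp, the activator of D-box genes, had the largest difference of means. Dbp was 8.45, 7.85, 7.33 and 10.98 on the Arntl-high side and 11.45, 11.80, 11.37 and 11.50 on the Arntl-low side. The means lay 7.36-fold apart (−2.88 ± 0.81), and S534A untreated 4 was 1 log2 unit or less below its nearest Arntl-low neighbours. Tef was 8.30, 8.49, 8.08 and 9.74 against 10.20, 10.38, 10.10 and 10.21, a difference of −1.57 ± 0.38. Hlf differed by −0.62 ± 0.12. Bhlhe41 and Bhlhe40, which encode the E-box repressors DEC2 and DEC1, differed by −1.82 ± 0.42 and −0.96 ± 0.24. Over the core clock list, 2 of 14 measured genes were higher and 5 lower by the count used here (sides that do not overlap and means at least 1.5-fold apart). Over the 6 output factors, 1 was higher and 5 lower. The rule was applied to Arntl, so nothing is read from these counts. Over all 15908 genes tested, 1.63% met the same count, 0.717% higher and 0.918% lower on the Arntl-high side.

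**Figure D1:**
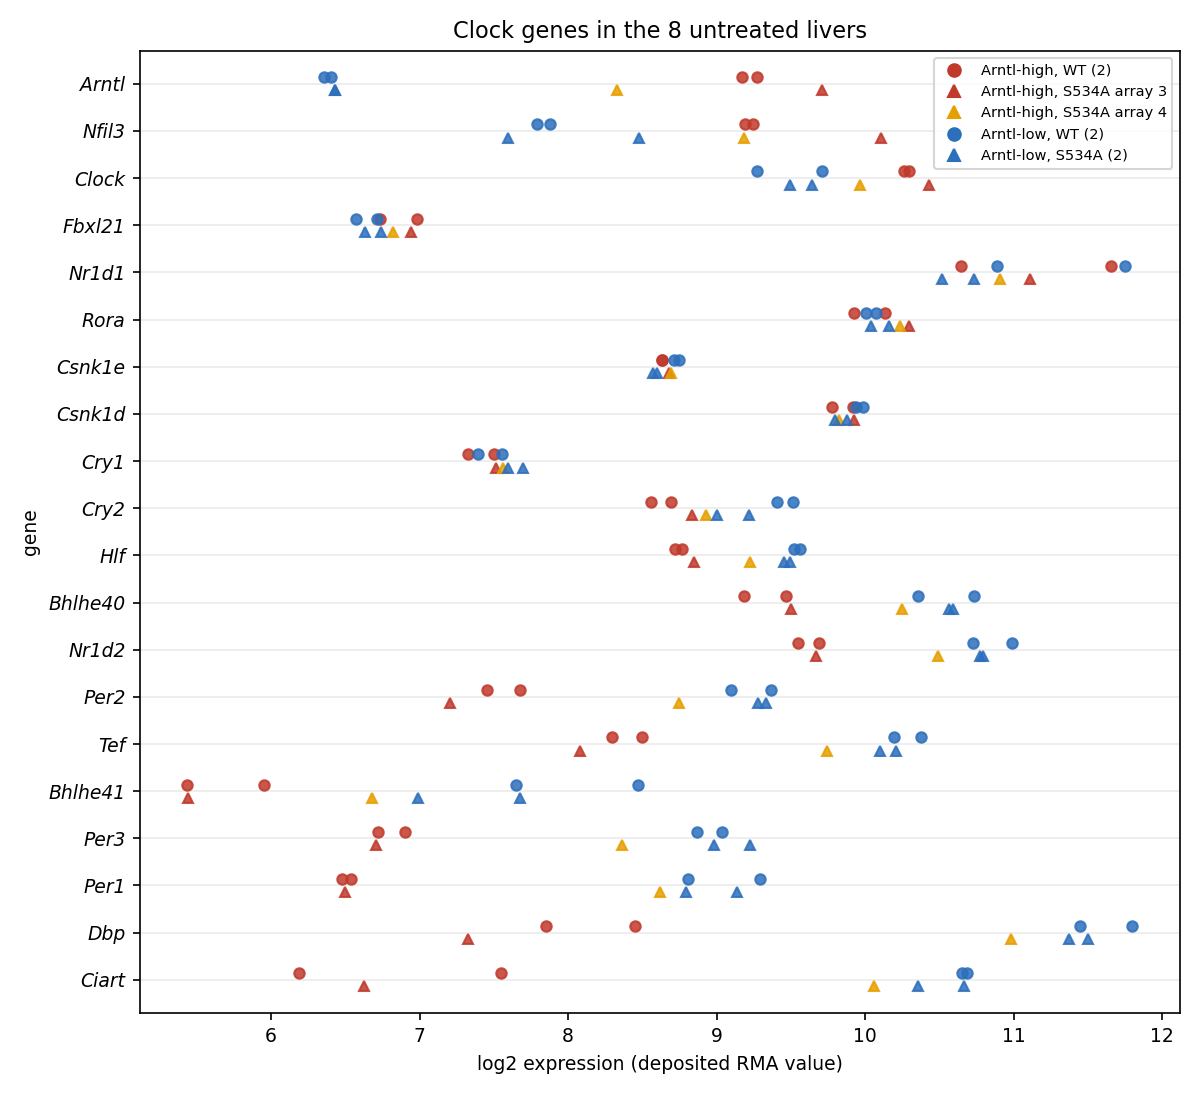
Log2 expression (horizontal axis) of the 20 measured clock genes in each untreated liver, ordered by the side difference. Red and orange points are Arntl-high arrays (orange is S534A untreated 4), blue points Arntl-low arrays, circles WT and triangles S534A. For Dbp, Ciart and the Per genes the orange triangle lies nearer the blue points, while for Nfil3 it lies beside red ones. For Clock it lies about midway between the colours.

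Beyond the clock lists, 111 genes were higher and 136 lower on the Arntl-high side. Among all 260 genes that met the count, 36 were higher and 23 lower by at least 2-fold, and 5 were higher and 6 lower by at least 4-fold. The median difference over all genes was 0.04, and the 5th to 95th percentiles ran from −0.37 to 0.29. Of the 260 genes, 43.8% were higher on the Arntl-high side. That split became 31.8% when each array was centred on its median (94 higher, 202 lower) and 53% after a second quantile normalization (134 higher, 119 lower). No named gene whose sides did not overlap changed direction under any scaling. Csnk1e, Csnk1d, Krt19, Lyz2 and Pf4, all within 0.05 of 0, did.

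Among the genes higher on the Arntl-high side, Pdk4 came first. It encodes pyruvate dehydrogenase kinase 4, which restrains the burning of glucose in fasting. Its values were 10.16, 8.57, 10.53 and 9.49 against 6.81, 6.76, 6.41 and 7.24, and the means lay 7.38-fold apart (2.88 ± 0.46). WT 3 was the lowest of the Arntl-high arrays, and the sides did not overlap. Tubb2a, a beta-tubulin gene, was 10.55, 10.28, 10.05 and 9.20 against 8.03, 7.88, 7.42 and 7.67 (2.27 ± 0.32). Acnat2, which belongs to a family that conjugates fatty acids to amino acids, was 9.06, 9.32, 9.03 and 8.21 against 6.49, 7.05, 7.08 and 6.91 (2.02 ± 0.28). In both genes the lowest Arntl-high array was S534A untreated 4. Ppp1r3c, a subunit that brings protein phosphatase 1 to glycogen, was 10.71, 10.06, 10.32 and 9.40 against 8.77, 8.55, 7.97 and 8.21 (1.75 ± 0.33).

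Cldn1, a tight-junction claudin, was 12.11, 12.19, 12.40 and 11.68 against 10.18, 10.94, 10.53 and 10.23 (1.62 ± 0.23). Chka, the choline kinase that starts phosphatidylcholine synthesis, was 9.52, 9.67, 10.17 and 9.13 against 7.84, 8.06, 8.21 and 7.89 (1.62 ± 0.23). These genes, like the ones before them, showed a gap of more than 0.5 between the nearest arrays of the sides. Clpx, the ATPase subunit of a mitochondrial protease, differed by 1.52 ± 0.22, and Ddc, the aromatic amino acid decarboxylase, by 1.48 ± 0.20. Elovl3, a very-long-chain fatty acid elongase of liver and brown fat, was 12.82, 12.43, 12.70 and 12.15 against 11.12, 11.40, 10.97 and 11.07 (1.38 ± 0.17). The other genes of the leading 15 were Mmd2 (1.52), Denn2b (1.47), Depp1 (1.47), Gask1a (1.42), Abtb2 (1.39) and Creld2 (1.39). In all 15 of these genes the sides were apart.

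Among the genes lower on the Arntl-high side, Usp2, a deubiquitinase gene with strong daily rhythm, led. It was 7.25, 7.24, 7.33 and 10.46 against 11.10, 10.75, 10.81 and 10.82, and the means lay 6.95-fold apart (−2.80 ± 0.80). The first 3 Arntl-high arrays were within 0.1 of each other and S534A untreated 4 was close to the Arntl-low arrays. Wee1, the kinase that holds back entry into mitosis, was 7.06, 6.84, 7.36 and 9.45 against 9.82, 10.07, 9.93 and 10.13 (−2.31 ± 0.60). Nrg4, which encodes an EGF-family ligand, was 6.17, 6.61, 6.46 and 8.48 against 9.13, 8.98, 9.19 and 9.47 (−2.26 ± 0.53). Pfkfb3, which makes the glycolytic activator fructose 2,6-bisphosphate, was 6.86, 6.60, 6.55 and 8.73 against 9.02, 9.20, 9.78 and 9.02 (−2.07 ± 0.55). The pattern of Usp2 was repeated in these 3 genes: a low level in 3 arrays, and S534A untreated 4 within 0.6 of the Arntl-low side.

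Coq10b, a coenzyme Q binding protein whose promoter is printed above, was 7.99, 8.09, 7.90 and 9.66 against 10.04, 9.91, 10.13 and 10.17 (−1.65 ± 0.42). Slc20a1, a phosphate transporter, was 8.88, 8.78, 8.68 and 9.91 against 10.15, 10.26, 10.27 and 10.58 (−1.25 ± 0.30). Ppat, the first committed enzyme of purine synthesis, differed by −1.10 ± 0.23, and Ak4, a mitochondrial adenylate kinase, by −1.01 ± 0.25. The remaining genes were Gdap10 (−1.72), Dact1 (−1.30), the B-cell chemokine Cxcl13 (−1.11), the adhesion gene Ncam2 (−1.08), Tmtc2 (−1.07), and the Krüppel-like factors Klf10 (−1.04) and Klf13 (−1.02). For Cxcl13, S534A untreated 4 at 8.64 and S534A untreated 2 at 8.65 nearly touched, so the sides were barely apart there.

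**Figure D2:**
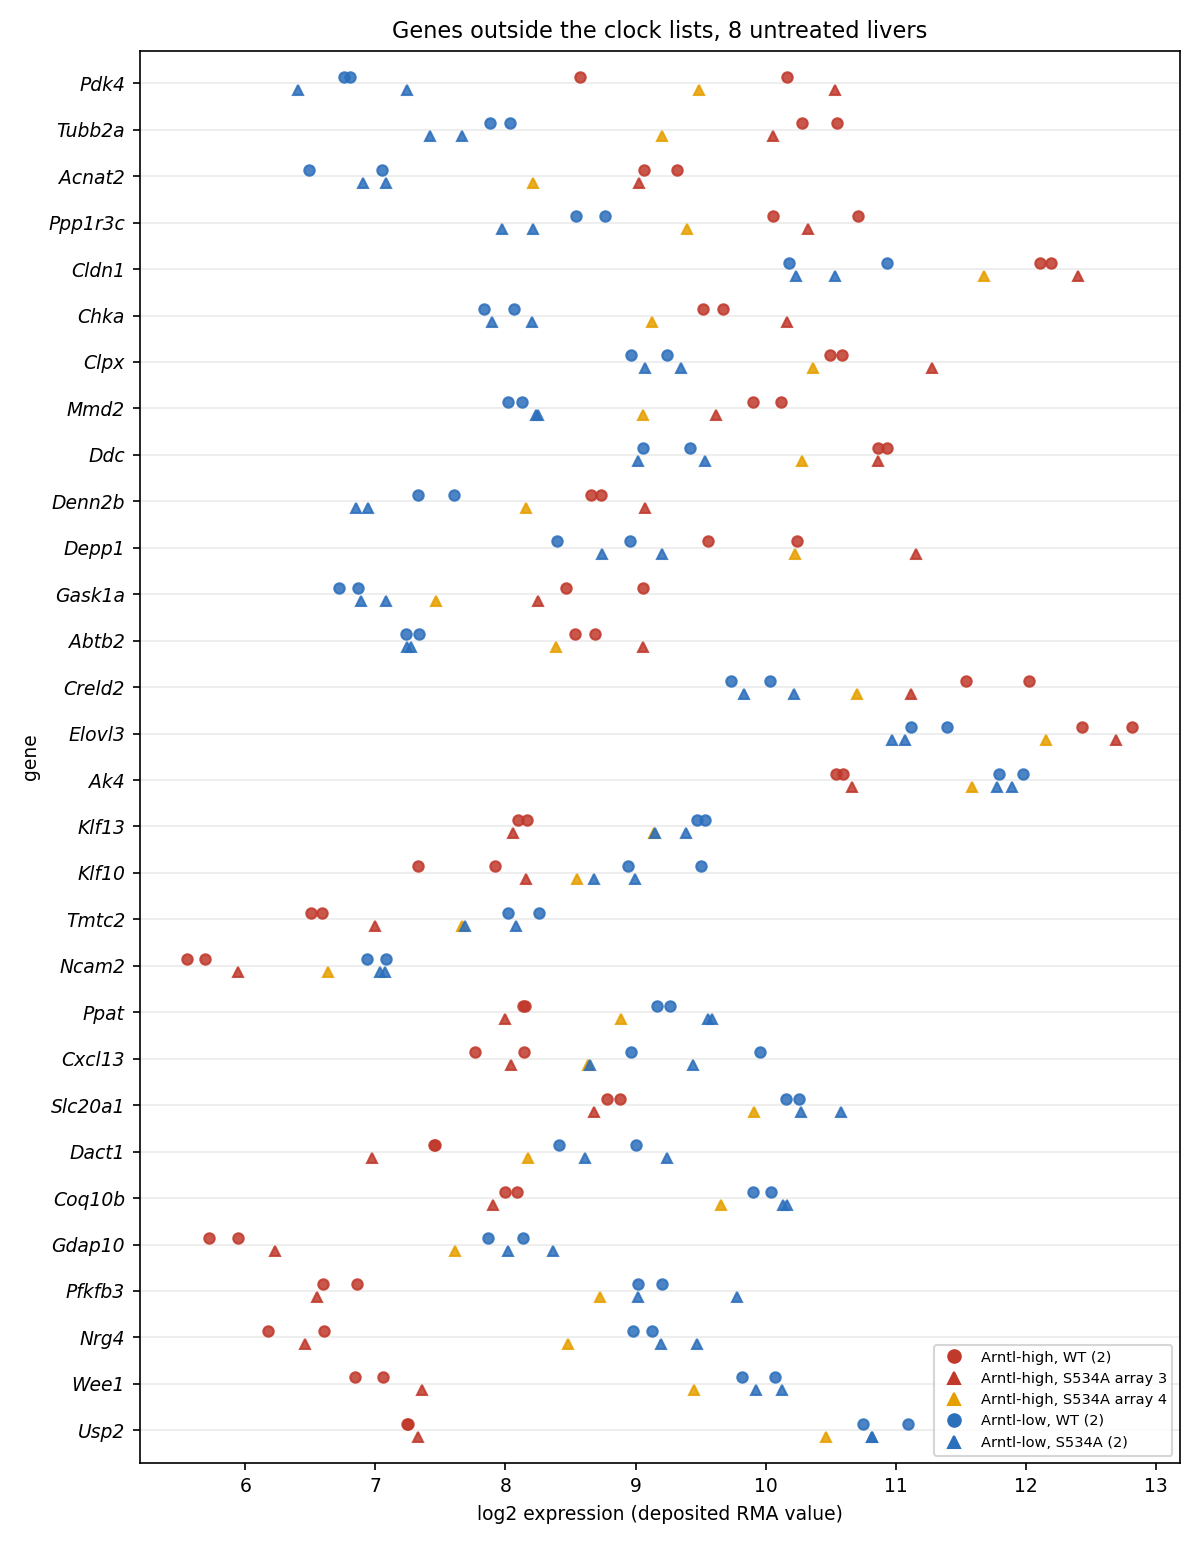
Log2 expression (horizontal axis) of the 15 genes with the largest positive and the 15 with the largest negative side difference outside the clock lists, among genes whose sides did not overlap. Colours and symbols are as for the clock genes; the orange triangle, S534A untreated 4, lies between the sides in most of the upper genes, but above WT untreated 3 for Pdk4 and Depp1, and close to the blue Arntl-low points in most of the lower genes.

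The second largest positive difference outside the clock lists belonged to Mir122, the transcript of the liver's most abundant microRNA, whose promoter REV-ERB alpha is known to repress. It was left out of the leading genes with the other small RNA symbols and is named here after its values were seen. It was 8.59, 8.99, 8.55 and 7.26 on the Arntl-high side and 5.33, 5.65, 6.52 and 5.53 on the Arntl-low side (2.59 ± 0.46), so the sides did not overlap. The array measures RNA that includes the precursor, not the mature microRNA.

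Genes known to follow the clock in liver were divided between the sides. Of 23 measured, 7 were higher and 6 lower on the Arntl-high side (all genes: 0.717% higher and 0.918% lower). The median difference was −0.51, against 0.04 over all genes. The 7 higher genes were Tubb2a, Clpx, Elovl3, Slc45a3 (1.37), the linker histone H1f2 (1.23), Insig2 (1.06), which holds the sterol sensor in the endoplasmic reticulum, and the vasopressin receptor Avpr1a (0.95). Insig2 was 11.82, 11.58, 12.25 and 11.72 against 10.52, 11.13, 10.75 and 10.74. The 6 lower genes were Usp2, Wee1, Coq10b, Nampt (−0.86), the rate-limiting enzyme of NAD salvage, the liver glycogen synthase Gys2 (−0.85) and the lipase Pnpla2 (−0.63). Rgs16 had a difference of −1.99 ± 0.67 but its sides overlapped, because S534A untreated 4 (9.84) exceeded WT untreated 4 (9.73). Lpin1 had −1.26 ± 0.34, and S534A untreated 4 and WT untreated 4 both stood at 10.82. The list was drawn up from genes known for daily rhythm, with earlier results of these livers known, so its counts are no independent support.

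Of 26 ER stress genes measured, 18 had a positive difference (69.2%, against 58.3% of all genes), and the median difference was 0.20, against 0.04. The sides did not overlap in 11 (all genes: 15.2%), and 3 were higher and 1 lower by the full count (15.4%, against 1.63%). Creld2 was 11.54, 12.03, 11.12 and 10.70 against 9.73, 10.03, 9.83 and 10.22 (1.39 ± 0.30). Hyou1, an ER chaperone, differed by 0.84 ± 0.18 and Manf, a secreted ER stress protein, by 0.65 ± 0.18. Herpud1, part of ER-associated degradation, went the other way at −0.67 ± 0.20. The WT differences were larger than those of S534A in Creld2 (1.90 against 0.89) and Hyou1 (1.13 against 0.55), which was not tested.

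Of 20 ribosome biogenesis genes, 16 had a negative difference (80%, against 41.7% of all genes), and the median was −0.35. The nucleolar factors Gnl3 (−0.90 ± 0.20) and Nop58 (−0.76 ± 0.21) were lower by the full count (10%, against 0.918%). In the cell cycle list 0 of 21 were higher and 2 lower (all genes: 0.717% higher and 0.918% lower). These 2 were the cyclin E genes Ccne1 (−1.01 ± 0.26) and Ccne2 (−0.63 ± 0.15). Myc, which drives ribosome production among other programmes, had −1.24 ± 0.46, with its sides overlapping at S534A untreated 4 (9.07) and S534A untreated 2 (8.85).

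Over the 7 metabolic lists, 7 of 162 entries met the count (4.32%, against 1.63% of all genes). For fasting, 1 of 28 was higher (Pdk4) and 1 lower (Lpin2, −0.61). For glucose and glycogen, 1 of 16 was higher (Ppp1r3c) and 2 lower (Gys2 and Pfkfb3). For bile acids, 1 of 25 was higher: Nr0b2, which encodes the repressor SHP, at 10.74, 10.42, 11.03 and 10.45 against 9.95, 9.24, 9.20 and 9.79 (1.12 ± 0.24). Cyp7a1, which SHP represses and which sets the pace of bile acid production, was 10.71, 11.51, 11.13 and 12.43 against 12.27, 12.00, 12.63 and 12.75 (−0.97 ± 0.40). Its sides overlapped through S534A untreated 4 alone. In the lists for lipogenesis (21 genes), cholesterol synthesis (20) and amino acid catabolism (20), 0 genes met the count. Of 32 drug metabolism genes 1 was higher, Cyp2c55 (0.80 ± 0.26).

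The medians of the stress and inflammation lists lay between −0.15 (heat shock) and 0.10 (interferon-stimulated), against 0.04 over all genes. Single members lay farther out with overlapping sides, among them Gadd45g (−0.95), Socs3 (−0.91) and Egr1 (0.82). Over all genes 1.63% met the count, a share that a single gene exceeds in lists this short. Of 16 glucocorticoid targets, 0 were higher and 1 lower, Fkbp5 (−0.81 ± 0.25), and of 16 heat shock genes 0 were higher and 1 lower, Dnajb1 (−0.59 ± 0.16). Of 28 acute-phase genes 2 were lower, the IL-6 receptor gene Il6ra (−0.83 ± 0.23) and Steap4 (−0.71 ± 0.17). Of 33 NF-kB targets 1 was higher, Tnfaip2 (0.79 ± 0.16), and of 24 interferon-stimulated genes 0 met the count. Of 18 immediate early genes 1 was lower, Klf10. Of 19 growth hormone axis genes 1 was higher, Elovl3, and neither of the 2 cold-inducible genes met the count (Cirbp 0.40, Rbm3 −0.20).

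Of 83 markers in 10 lists of other cell types, 1 met the count (1.2%, against 1.63% of all genes), the biliary factor Sox9 (0.65 ± 0.16). The mean log2 level of the 4 cholangiocyte markers was 6.84 to 6.98 on the Arntl-high side and 6.65 to 6.71 on the Arntl-low side, while the defining genes Krt19 (0.04) and Epcam (0.12) overlapped. The mean level of 14 neutrophil markers was 6.04 to 6.13 against 5.93 to 6.01, that of 12 sinusoidal endothelial markers 9.84 to 9.87 against 9.68 to 9.83, and that of 11 hepatocyte markers 13.54 to 13.65 against 13.66 to 13.68. These 4 ranges did not overlap between the sides, and their part in the differences above was not tested. The neutrophil levels lay below the medians of the untreated arrays (6.25 to 6.35), where signal is low. The largest difference in that list, Lcn2 (0.58), had overlapping sides, and Lcn2 is also in the acute-phase list. The ranges of the other 7 lists overlapped, among them Kupffer cell markers at 9.23 to 9.28 against 8.83 to 9.55. In such bulk tissue fewer cells of a type and less RNA per cell cannot be told apart.

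Each genotype had 2 arrays on each side, so the differences are also described within WT and within S534A. Of the 260 genes, 152 differed by at least 1.5-fold in the same direction in WT and in S534A taken separately. The 260 were picked from these same arrays, so this agreement is largely built in and supports nothing further. A shared sign in all 260 is fixed by the requirement that the sides not overlap. The same count over all genes was not made. Arntl, which drew the sides, differed by 2.84 in WT and 2.59 in S534A, and Pdk4 by 2.58 and 3.19. Dbp differed by −3.47 in WT and −2.28 in S534A, Ciart by −3.80 and −2.17, and Usp2 by −3.68 and −1.92. The S534A difference was the smaller in size in 129 of the 146 lower genes and in 65 of the 114 higher genes, and S534A untreated 4 is one of the 2 Arntl-high S534A arrays. This comparison of sizes was not counted over all genes either, so nothing is read from it. Among the exceptions, Dact1 differed by −1.25 in WT and −1.35 in S534A. Whether the genotypes differ in the size of the division was not tested.

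**Figure D3:**
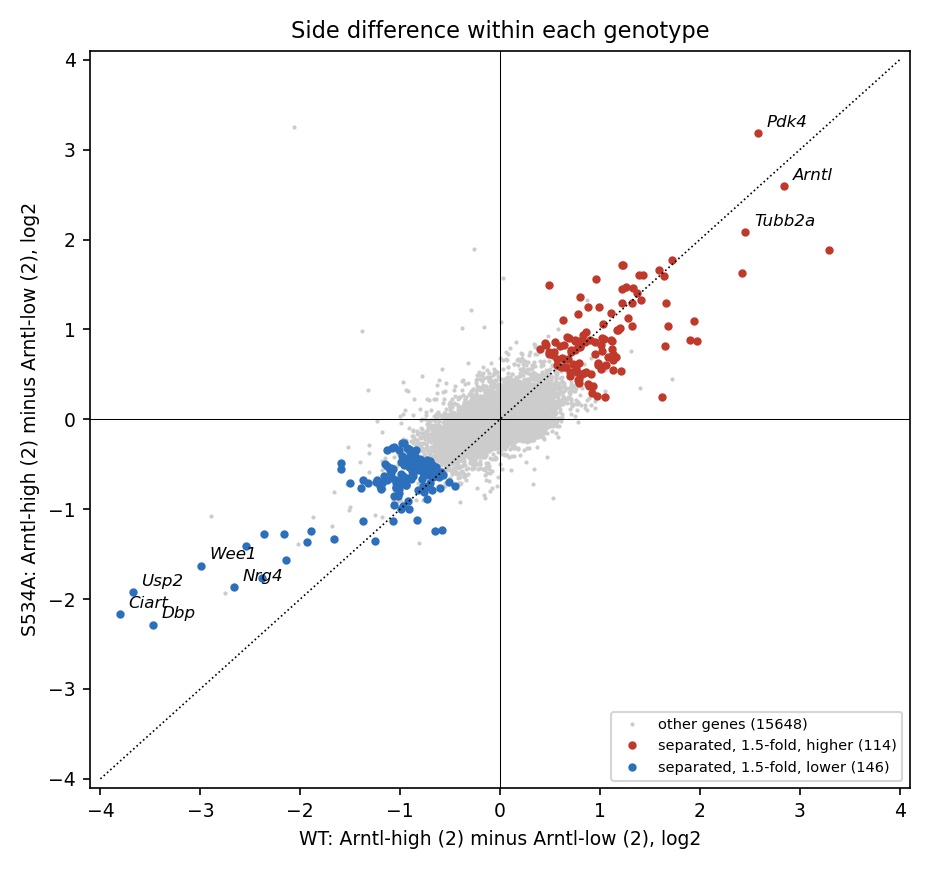
Arntl-high minus Arntl-low difference (log2) within WT (horizontal axis, 2 arrays against 2) and within S534A (vertical axis, 2 against 2) for each of 15908 genes, with the dotted line marking equal differences. Red points are the 114 genes higher and blue points the 146 genes lower on the Arntl-high side; Ciart, Usp2 and Dbp lie above the line, nearer 0 in S534A than in WT.

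S534A untreated 4 held an intermediate place that differed between the 2 directions. To describe it without using its own values, genes were counted among the other 7 arrays, which gave 178 higher and 347 lower on the Arntl-high side. Its position was then scaled so that 0 is the Arntl-low mean and 1 the mean of the other 3 Arntl-high arrays. Over the 178 higher genes the median position was 0.51 (quartiles 0.39 and 0.62), and 94 lay above 0.5. Over the 347 lower genes it was 0.29 (quartiles 0.19 and 0.41), and 38 lay above 0.5. The genes were picked for a gap among the other 7 arrays, which can widen that gap and place the array left out short of 1. No other array was placed in this way, so these positions have no reference. Pdk4 stood at 0.91, Nfil3 at 0.79, Arntl at 0.65 and Clock at 0.55, toward the Arntl-high arrays. Wee1 stood at 0.19, Dbp at 0.15, Ciart at 0.14 and Usp2 at 0.11, close to the Arntl-low arrays. The 11 clock genes counted as lower ranged from 0.14 to 0.61 with a median of 0.28, the highest of them Cry2 (0.61) and Bhlhe41 (0.49). The 3 counted as higher ranged from 0.55 to 0.79, so the ranges overlapped through Cry2.

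**Figure D4:**
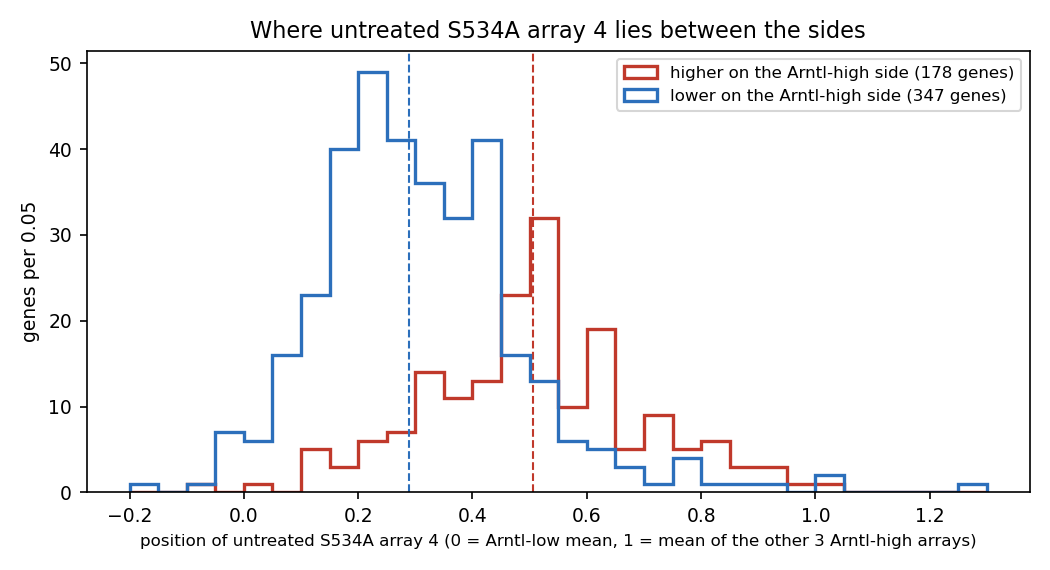
Number of genes (vertical axis) at each position of S534A untreated 4 between the Arntl-low mean (0) and the mean of the other 3 Arntl-high arrays (1), for 178 higher genes (red) and 347 lower genes (blue) counted among the other 7 arrays. Dashed lines mark the medians, 0.51 and 0.29.

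The genes whose pattern over the 8 untreated arrays was most like Arntl were Gldc (Pearson r = 0.994), Trim2 (0.993), Gpr12 (0.992), Shank2 (0.992) and Abtb2 (0.991). Those most like Dbp were Rabl6 (0.994), Susd4 (0.989), Ciart (0.988), Efhd2 (0.987) and Tef (0.987). These coefficients are set largely by the gap between the sides, and they were picked as the highest among 15908 genes. Their sizes differed widely: Gpr12 was 0.46 and Rabl6 −0.41 apart, less than 1.5-fold, while Abtb2 was 1.39 and Tef −1.57 apart.

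Since each genotype held 2 arrays of each side, S534A could be compared with WT with the side as a covariate (limma, adjusted by Benjamini-Hochberg over 15908 genes, threshold 0.05). No gene passed (0%), and 2191 genes had an unadjusted p under 0.05 (13.8%). Without the covariate the count was 0 as well, with 1277 at an unadjusted p under 0.05. The lowest p belonged to Igfbp1, an insulin- and stress-responsive binding protein of IGF. It was 9.53, 10.52, 9.60 and 9.06 in WT 1 to 4 and 11.31, 11.60, 12.02 and 11.78 in S534A 1 to 4. The genotypes did not overlap, and the difference was 2.00 ± 0.27 (limma adjusted p = 0.122), 2.33 on the Arntl-high side and 1.66 on the Arntl-low side. Without WT untreated 2, the highest WT array, it was 2.36 with a limma adjusted p of 3.70e-05. The next 4 genes were Cldn3 (−0.47), Polr2i (−0.51), Get3 (−0.41) and Ndufa2 (−0.44), each with a limma adjusted p of 0.122. Arntl itself differed between genotypes by −0.08 ± 0.23 (limma adjusted p = 0.941) and Dbp by 0.41 ± 0.63 (limma adjusted p = 0.863). The side was cut from Arntl in these same arrays, so this fit compares Arntl only within the sides. It cannot show whether Arntl differs by genotype, and the same holds in part for Dbp, which followed the side. Rela, the mutated gene, differed by −0.19 ± 0.09 (limma adjusted p = 0.367), but a codon change does not alter what the probes measure, so this does not check the labels.

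The 8 LPS-treated livers took no part in the division and so allowed a test. Arntl ranged from 6.61 to 8.02 among them, a narrower span than in the untreated livers, with S534A LPS 2 the highest and S534A LPS 4 the lowest. The slope of each other gene on Arntl was fitted with genotype as a covariate (limma, adjusted over 15907 genes). At an unadjusted p under 0.05 there were 573 genes (3.6%). At an adjusted p under 0.05, 1 gene passed (0.00629%): Ciart, the clock repressor. Ciart was 10.03, 10.47, 9.74 and 10.28 in WT LPS 1 to 4 and 9.92, 8.28, 10.12 and 10.50 in S534A LPS 1 to 4. It fell by 1.57 ± 0.15 log2 units per log2 unit of Arntl (limma adjusted p = 0.0112). S534A LPS 2 had both the lowest Ciart and the highest Arntl. Without that array the slope was −1.13 (limma adjusted p = 0.984), without S534A LPS 4 it was −1.69 (limma adjusted p = 0.0738), and without both it was −1.21 (limma adjusted p = 0.270), so the call rested on these arrays while the sign did not change.

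Most clock genes had the same direction in the LPS-treated livers. Of 19 clock genes other than Arntl, 17 had a slope of the same sign as their side difference (89.5%, against 65.3% of all genes). Of the 19, 10 had the same sign and an unadjusted p under 0.05 (52.6%, against 2.48% of all genes). Without S534A LPS 2, 15 had the same sign and 7 of them had such a p, against 9655 and 334 of all 15907 genes. Slopes were −0.82 ± 0.13 for Cry2, −1.36 ± 0.27 for Dbp, −0.88 ± 0.19 for Per1, −0.68 ± 0.22 for Per2 and 0.50 ± 0.12 for Clock, none of which passed (limma adjusted p from 0.267 to 0.999). Outside the clock lists the same sign was seen in 105 of the 136 lower genes (77.2%), against 67.3% of all genes with a negative difference. It was seen in 60 of the 111 higher genes (54.1%), against 63.9% of all genes with a positive difference. Elovl3 had a slope of 1.32 ± 0.25 and Tubb2a of 0.63 ± 0.12 (limma adjusted p = 0.359 and 0.403). Pdk4, the leading higher gene, had −0.45 ± 0.57, and was between 6.82 and 9.41 with a median of 7.21. The sign of that slope turned on 1 array: without S534A LPS 2, and without both S534A LPS 2 and S534A LPS 4, it was positive (0.60 in the latter).

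In level, the LPS-treated livers resembled neither side throughout. Per1 (8.12 to 9.66) and Ciart (8.28 to 10.50) reached the levels of the Arntl-low side. Per3 (6.44 to 7.16), Tef (7.90 to 8.65) and Usp2 (6.98 to 7.52) were around the levels of the first 3 Arntl-high arrays, and Hlf (7.97 to 8.55) was below all 8 untreated arrays. Nfil3 (10.50 to 10.93) was above all 8. Of the 114 genes higher on the Arntl-high side, the mean of the LPS arrays lay between the 2 side means in 47, below the Arntl-low mean in 44 and above the Arntl-high mean in 23. Of the 146 lower genes it lay between them in 30, below the Arntl-high mean in 64 and above the Arntl-low mean in 52. LPS, its time of action and the hour of collection cannot be told apart in this comparison.

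**Figure D5:**
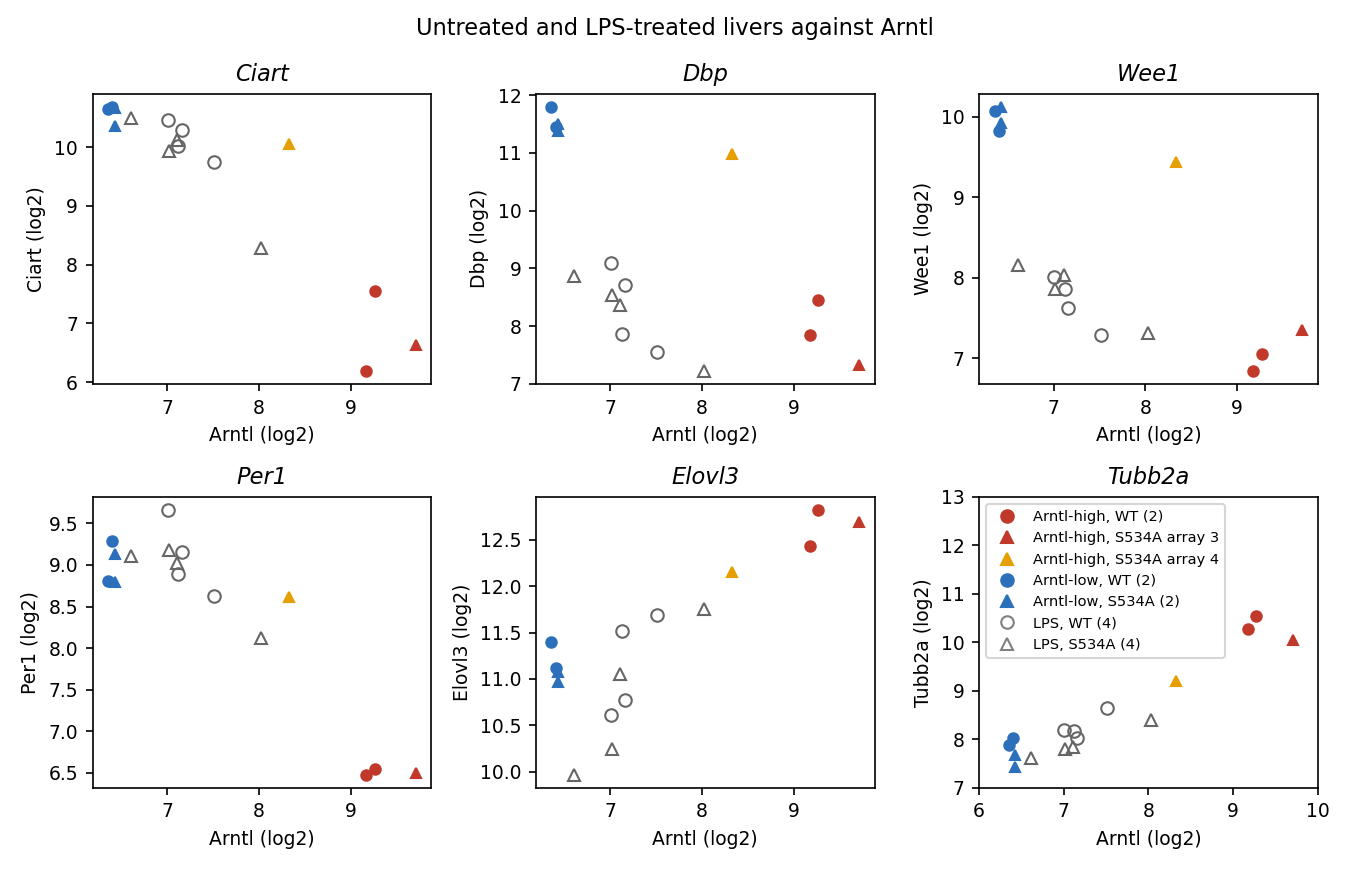
Log2 expression of 6 genes (vertical axes) against log2 Arntl (horizontal axes) in all 16 livers. Coloured symbols are untreated livers as before and open grey symbols LPS-treated livers; Ciart and Wee1 lie lower and Elovl3 and Tubb2a higher at higher Arntl among the open symbols, with S534A LPS 2 at the right end.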

How the data were processed

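Liver RNA was amplified from 150 ng and hybridised to Affymetrix whole-transcript arrays. The deposited log2 values come from RMA, per the submitters' processing notes. RMA corrects background, quantile-normalizes arrays and summarises probes, and so removes shifts shared by a whole array. The RMA version, scan dates and slides were not stated in the labels. Of 35556 probe sets, 21789 have 1 gene symbol, 1621 several and 12146 none, and only the first were named. Probe sets above their array's 30th percentile in at least 4 of 16 arrays were kept, and where a gene had several, the one with the highest mean stood for it (15908 genes). Probe sets were not compared with each other in level.

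Side differences are means of 4 arrays against 4 with no test. Tests used limma 3.58.1 in R 4.3.3 with Benjamini-Hochberg adjustment and a threshold of 0.05, and were tested on simulated data. Named were all clock genes, the 15 largest differences each way without small RNA, predicted and clone symbols, up to 4 genes per list, the 5 lowest p-values per test and the 5 genes most like Arntl and Dbp. The division, the members and the 569 list genes (505 measured) were chosen with earlier results of these data known. The number of arrays limits the precision. Figures were drawn with matplotlib.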

Additional observations from a re-analysis of the deposited data

Results flagged for a closer look

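Among the 156 named genes on each side (312 sets of 4 arrays), 23 sets had a lowest or highest array far from the other 3, measured as its gap to the nearest array over the whole range, against Dixon's limit for 4 arrays. Chance gives about 1 in 20 for sets that are independent and not selected. These genes were picked partly for large differences and vary together on the same arrays. The rate is thus a rough guide, and flags on 1 array are not separate events. The array was S534A untreated 4 in 15 of the 23 sets. Of these, Per1 (gap 0.971), Usp2 (0.973), Stard4 (0.941), Gnl3 (0.941), Hspa1a (0.931), Klf13 (0.902), Coq10b (0.896), Per3 (0.883), Lpin1 (0.883), Ak4 (0.878), Pfkfb3 (0.858), Nr1d2 (0.849), Slc20a1 (0.837) and Ppat (0.83) had S534A untreated 4 above the other Arntl-high arrays. For Ddc (0.889) it lay below them. S534A untreated 1 stood apart on the Arntl-low side for Ciart (0.901) and Cyp2c55 (0.909), where it was lowest, for Gadd45g (0.885), where it was highest, and for the platelet gene Pf4 (0.84), where it was lowest. S534A untreated 3 had the highest Nfil3 (0.933), WT untreated 4 the lowest Acaca on its side (0.937), WT untreated 1 the lowest Itgam (0.856) and WT untreated 3 the lowest Ppbp (0.895).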

How the results depend on the processing

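The counts of 114 higher and 146 lower genes became 36 and 23 with a 2-fold minimum and 1364 and 1052 with no fold minimum. Leaving out 1 untreated array gave 104 to 178 higher and 122 to 347 lower genes, the highest values without S534A untreated 4. Of the 260 genes, 240 were kept with median centring and 225 with a second quantile normalization. Of the 0 genes called between genotypes, 2 were called with all 16 arrays, 8 with a trended and robust fit, and 0 to 2 when 1 array was left out (2 without WT untreated 2). Igfbp1 had a limma adjusted p of 0.0168 with all 16 arrays. The single gene called on Arntl under LPS became 0 with a second quantile normalization, at an adjusted p of 0.01, without the genotype covariate, with Dbp or the mean of Dbp, Tef, Per1, Per2 and Per3 in place of Arntl (the latter chosen after seeing the data), and without the 2 arrays farthest in Arntl. It became 2 with the trended and robust fit and ranged from 0 to 1 when 1 array was left out. Same-numbered arrays of the 2 genotypes did not all deviate together (correlations −0.49, 0.59, 0.59 and −0.20 untreated, numbers 2 and 3 each sharing a side, and −0.13, −0.30, 0.17 and 0.20 with LPS), so the numbers were not taken as pairs. With the replicate number as a block the genotype count was 0, with or without the side, and the LPS count 20. The causes of these changes were not tested. Of the 156 named genes, 7 changed the sign of their side difference under some alternative, and 0 of these were among the 80 whose sides did not overlap. Slope signs of several named genes changed without S534A LPS 2, among them Pdk4 and the clock genes Nr1d1 and Fbxl21. Others were Hmgcs1 (0.14 to −1.48), Creld2 (0.04 to −0.65), Hyou1 (0.14 to −0.46) and Cxcl13 (−0.18 to 0.34). Signal over background was not analysed here.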

Other observations

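Some genes differed widely among the untreated livers without following Arntl, and they are named after their values were seen. Ctse, which encodes the protease cathepsin E, was 10.37 in WT untreated 4, 9.93 in S534A untreated 3 and 8.73 in S534A untreated 4, and 5.94 to 6.17 in the other 5 untreated livers. The 3 livers with high Ctse thus came from both sides and both genotypes, and the side difference was −2.07 within WT and 3.25 within S534A. Egr1, an immediate early transcription factor, was 10.39 and 9.63 in S534A untreated 3 and 4 and 7.75 to 8.47 in the other 6. Whether the side difference of these genes differs between the genotypes was not tested.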
